A study of Mus musculus with 2 samples.

Results

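Interferon-stimulated genes are the genes that cells switch on when an interferon reaches them, and 53 of them were followed here across cultured mouse aortic vascular smooth muscle cells (VSMCs). The genes were chosen by symbol, with earlier results of the same data known, because many of them were high in the cells carrying hashtag 1. Of the 53 genes, 51 are in the table of 32285 genes, and all 51 passed the filter on low values. Mx1 and Mx2 were not analysed here. Because the high level in tag 1 was used to choose the genes, the contrasts with tag 1 are given as a description without a test.

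The study asked how ageing, angiotensin II and lowering of the mechanosensitive channel Piezo1 alter VSMCs. Primary aortic VSMCs of C57BL/6 mice, bought from commercial suppliers, were cultured in 4 groups: young, from mice of 12 weeks; old, from mice of 58 to 78 weeks; young + AngII, which were young cells given 1e-07 M AngII for 48 hours; and old + siPiezo1, which were old cells transfected with Piezo1 siRNA at 20 nM by the labels and methods, while another passage of the study gives a different concentration. A non-targeting siRNA pool is described for old control cells in the imaging of PIEZO1 protein, but which of the sequenced groups received it, and which purchased stock each came from, is not stated in the sources used here. Cells of each group were marked with an antibody that carries a DNA tag (hashtag), mixed, and sequenced as 1 droplet library that counts each captured RNA molecule once, by its unique molecular identifier (UMI). Each group is 1 culture, so no test between groups was possible, and every interval below is a 95% interval for counting error only.

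Cells were barcodes with at least 2218 gene UMIs and 200 genes, which gave 13045 cells. A cell was given a tag when only that hashtag passed its cutoff. Tag 1 (young) held 3144 cells, tag 2 (old) 497, tag 3 (young + AngII) 1500 and tag 4 (old + siPiezo1) 1529, with medians of 6816.5, 10663, 9453.5 and 9792 UMIs per cell. No tag was called in 5307 cells (40.7%), and 1068 cells carried more than 1 tag. The names beside the tags follow the numbering in the study's schematic, which does not say that its numbers are tag numbers, so the tag is kept beside each name. Hashtag 1 separated well, with a median of 364 UMIs in tag 1 cells and 10 in cells without a tag, whereas hashtags 2 to 4 reached medians of 76, 113 and 67 in their own cells against 15, 31 and 20. Piezo1 stood at 89.6 UMIs per 1000000 UMIs (CPM; 82.0–97.9) in tag 2 and at 86.9 CPM (82.4–91.5) in tag 4, and therefore gives no check of the siPiezo1 label of tag 4. Xist, the RNA of the inactive X chromosome, was at 113 CPM in tag 1, 636 in tag 2, 118 in tag 3 and 768 in tag 4, and the summed Y-linked transcripts at 156, 47.0, 143 and 45.5 CPM. Age and this difference in the makeup of the cultures cannot be told apart. The 9 smooth muscle markers listed summed to 1316, 2133, 1489 and 1019 CPM in tags 1 to 4. Of these, Acta2 was at 378, 568, 294 and 174 CPM and Tagln at 415, 957, 698 and 428 CPM.

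Type I interferons bind a receptor on the cell surface, and the kinases JAK1 and TYK2 then activate a transcription factor complex, which includes STAT2 and IRF9 and binds the interferon-stimulated response element (ISRE) in the promoters of its targets. Interferon gamma acts at another element, the gamma-activated site (GAS). The induced proteins block viruses at many steps, sense foreign nucleic acid, attract leukocytes, or feed back on the pathway. VSMCs carry both kinds of receptor and are known to secrete chemokines such as CXCL10 after stimulation with interferon.

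Some of the promoters of these genes hold the letters of the ISRE. RefSeq promoter sequence (GRCm38.p6, from 250 bases before to 50 bases after each annotated start) was found for 40 of the 51 genes. The ISRE core GAAANNGAAA, searched on both strands, lay in the window of 24 of the 40 genes (60%), against 3.99% of all 27025 genes with a window. The GAS letters TTCNNNGAA lay in 7 of the 40 (17.5%), against 9.55% of all genes. A match is a description of these letters and not a bound site. Stretches from 8 genes are shown because they carry the ISRE core and come from genes that later part company in tag 3; each runs 5′ to 3′ on the strand of the gene, with the core in capitals (overlapping cores make a longer run, and a core on the other strand reads as its reverse complement).
Ifit3, chr19:34583358-34583436, plus strand: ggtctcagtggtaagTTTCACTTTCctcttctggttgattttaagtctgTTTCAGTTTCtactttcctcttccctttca
Ifit3b, chr19:34607754-34607832, plus strand: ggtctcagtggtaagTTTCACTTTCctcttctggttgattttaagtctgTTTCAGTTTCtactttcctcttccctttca
Ifit1, chr19:34640770-34640833, plus strand: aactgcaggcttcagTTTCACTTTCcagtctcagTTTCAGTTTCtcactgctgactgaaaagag
Rsad2, chr12:26456543-26456587, minus strand: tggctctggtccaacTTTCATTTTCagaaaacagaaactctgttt
Cxcl10, chr5:92349073-92349117, minus strand: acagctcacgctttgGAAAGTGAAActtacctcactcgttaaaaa
Isg15, chr4:156200855-156200911, minus strand: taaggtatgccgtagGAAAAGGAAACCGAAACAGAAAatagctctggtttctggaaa
Trim30a, chr7:104465200-104465244, minus strand: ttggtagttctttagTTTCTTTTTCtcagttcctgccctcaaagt
Irgm1, chr11:48871421-48871465, minus strand: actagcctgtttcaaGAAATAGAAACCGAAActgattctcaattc
The stretches of Ifit3 and Ifit3b differ at 0 of 79 bases, and the core nearest the start ends 112 bases before the start of Ifit3 and 144 before that of Ifit3b. In Isg15, 3 overlapping cores form 1 run that ends 56 bases before the start.

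Levels are the UMIs of a gene over the cells of a tag, per 1000000 UMIs of those cells (CPM). Because the assay counts 1 tag per captured RNA end, levels are not scaled by gene length. Summed over the 51 genes, the level was 9408 CPM (9369–9446) in tag 1, 695 CPM (674–718) in tag 2, 1861 CPM (1839–1883) in tag 3 and 738 CPM (725–751) in tag 4. All 51 genes were highest in tag 1, and in all of them the interval of tag 1 lay above those of the other tags. The next highest level was in tag 3 for 45 genes, in tag 4 for 5 and in tag 2 for 1. The ranks over all genes are not given here, so these counts describe the 51 genes alone. In a mixed pool of this kind, more cells that respond and more RNA per cell cannot be told apart from sums, and the levels per cell are given further on.

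**Figure D1:**
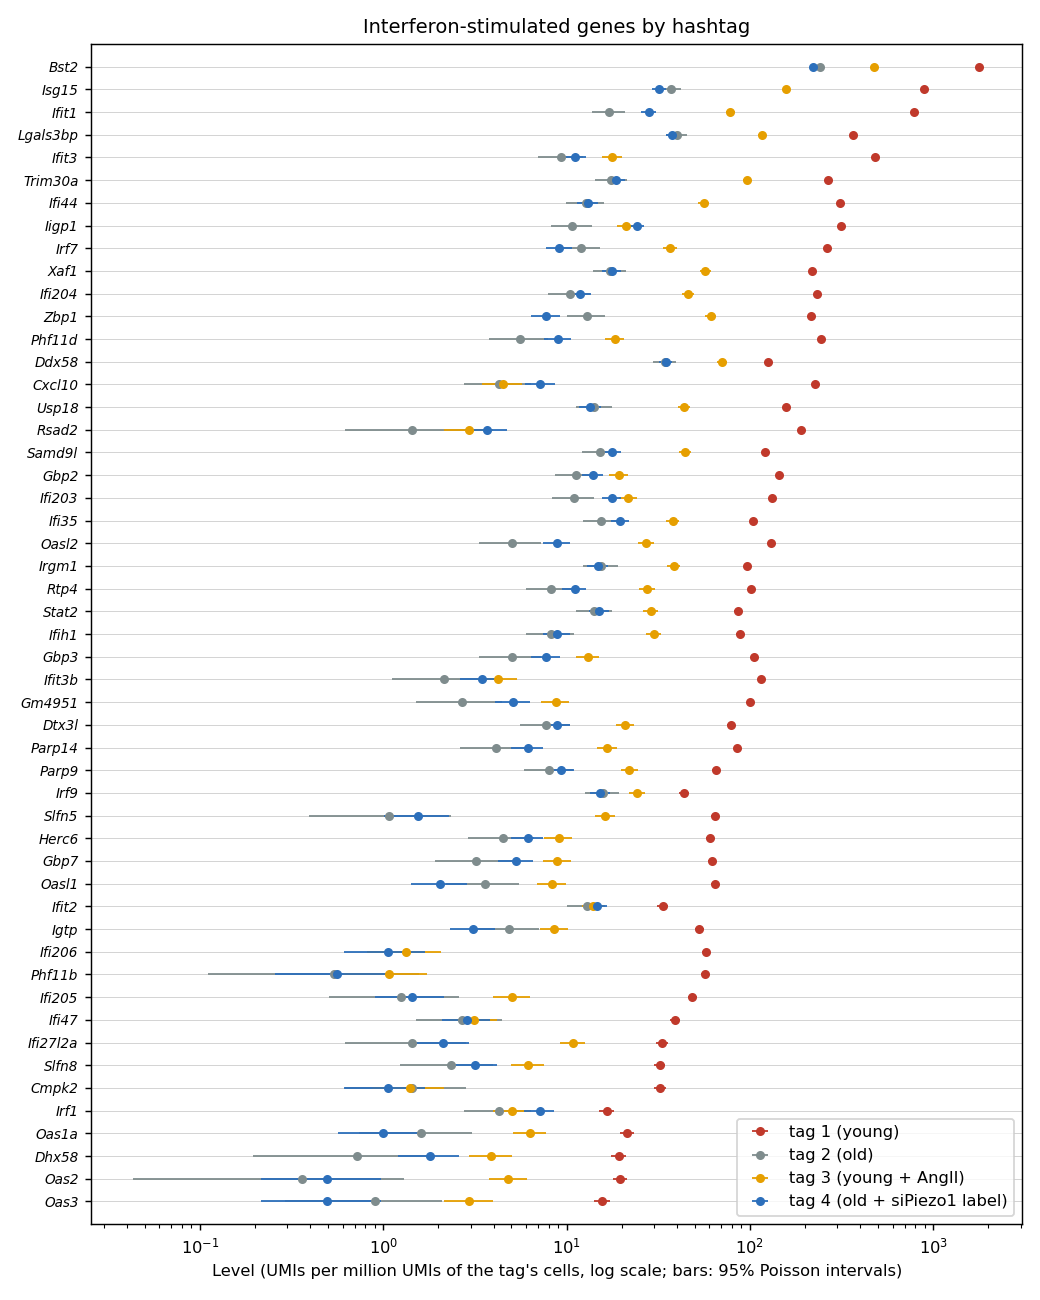
Level of each of the 51 genes in the 4 hashtags, in CPM on a log scale, with 95% Poisson intervals as bars and genes ordered by their mean over the tags. Every gene is highest in tag 1, and for 45 of them tag 3 comes next, while the ranks over all genes are not given. The level of 0 of Ifi206 in tag 2 cannot be drawn on the log scale.

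The first comparison asks how old cells differ from young ones. Between tag 1 (young) and tag 2 (old), 51 of 51 genes were at least 2-fold higher in tag 1, where 6.41% of all 12154 genes with a mean level of at least 2 CPM were. Between tag 1 and tag 4 (old, labelled siPiezo1), 51 of 51 were, against 6.20% of all genes. The median ratio of tag 1 over tag 2 was 17.4 for these genes and 0.98 for all genes tested, and that of tag 1 over tag 4 was 13.9 and 0.96. Since these contrasts chose the genes, nothing is read from the counts.

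The next comparison sets young cells beside young cells given AngII. Of the 51, 49 were at least 2-fold higher in tag 1 (young) than in tag 3 (young + AngII), against 4.65% of all genes, and the same 49 were at least 2-fold higher in tag 1 than in each of the other tags, against 2.46% of all genes. The 2 exceptions were Irf9 and Ddx58. Irf9, which binds STAT2 in the ISRE complex, was at 43.9 CPM (41.3–46.6) in tag 1 and 24.2 CPM (21.8–26.9) in tag 3, a ratio of 1.81 (1.61–2.05). Ddx58, which encodes the RNA sensor RIG-I, was at 125 CPM (120–129) against 70.4 CPM (66.3–74.8), a ratio of 1.77 (1.65–1.90). Both remained above 2-fold over tags 2 and 4. Below, a gene is said to have passed when it was at least 2-fold higher in tag 1 than in each other tag. For the 51 genes such counts are a description, because contrasts with tag 1 chose the genes. The ratios of tag 1 over tag 3 spread from 1.77 to 64.7 with a median of 5.14. The highest of them moved with the treatment of free RNA: with 5% of UMIs subtracted as free RNA, the ratio of Rsad2 went from 64.7 to 157, and over all alternatives that of Cxcl10 ran from 47.2 to 164, that of Phf11b from 47.1 to 103 and that of Ifi206 from 33.6 to 82.1.

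The third comparison sets old cells labelled siPiezo1 beside old cells. Of the 51 genes, 3 were at least 2-fold higher in tag 4 than in tag 2 (1.09% of all genes) and 0 were at least 2-fold lower (0.979% of all genes). Over the alternatives the first count ran from 0 to 14 and the second from 0 to 5. The filter on low values included tag 1, where these genes are high; with a mean of at least 2 CPM over tags 2 and 4 alone, 41 of the 51 genes were left, 2 of them were at least 2-fold higher in tag 4 (0.927% of 12088 genes) and 0 at least 2-fold lower (0.976%). The 3 were Rsad2 at 1.43 CPM (0.62–2.83) in tag 2 and 3.66 CPM (2.79–4.73) in tag 4, Dhx58 at 0.72 (0.20–1.84) and 1.80 (1.21–2.59), and Iigp1 at 10.8 (8.21–13.8) and 24.1 (21.8–26.6). For Dhx58 the interval of the ratio, 0.88 to 9.83, includes 1, and the ratio turned to 0.50 in cells with Y-linked transcripts but without Xist. The median ratio of tag 4 over tag 2 was 1.15 for the 51 genes and 1.02 for all genes. In 12 genes the interval of this ratio lay above 1, among them Ifit1 with a ratio of 1.65 (1.32–2.08) and Cxcl10 with 1.67 (1.07–2.72). The share of all genes with such an interval is not given here, so the 12 are not read as a result about these genes. In barcodes that are nearly empty, which hold the free RNA of the pool, Rsad2, Ifit1, Cxcl10 and Iigp1 stood far higher. In tags 2 and 4 Rsad2 was at 4.12% and 10.5% of the level there, Ifit1 at 8.04% and 13.3%, Cxcl10 at 6.89% and 11.5% and Iigp1 at 16.0% and 35.8%. Over the alternatives the ratio of tag 4 over tag 2 ran from 1.90 to 3.13 for Iigp1 and from 1.62 to 5.48 for Rsad2. The part of free RNA in levels this low was not tested, so these ratios are not read as a difference in expression. In 2 genes the interval of the ratio of tag 4 over tag 2 lay below 1, Zbp1 with 0.60 (0.44–0.81) and Bst2 with 0.91 (0.85–0.97). That count too has no share over all genes beside it. Zbp1 stood at 17.8% and 10.6% of its near-empty level in tags 2 and 4. Both ratios crossed 1 under the alternatives, where that of Zbp1 ran from 0.35 to 1.49 and that of Bst2 from 0.85 to 1.04. The ratios are between 1 culture each, and tag 2 has only 497 cells.

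Among the effectors that act on viruses, Bst2 and the IFIT genes carried most of the RNA. Bst2 encodes tetherin, which holds budding virus at the cell surface; it lies on chromosome 8 from 71534255 to 71537456 (GRCm38) and reached 1785 CPM in tag 1, 241 in tag 2, 474 in tag 3 and 220 in tag 4. It was the most abundant of the 51 genes in every tag. Rsad2, whose product viperin makes a chain-terminating nucleotide, was at 191, 1.43, 2.95 and 3.66 CPM in tags 1 to 4, a pattern with tag 1 alone standing out. Cmpk2, a nucleotide kinase gene next to Rsad2 on chromosome 12, had the same shape at 32.3, 1.43, 1.41 and 1.06 CPM. Trim30a, a TRIM-family regulator of innate signalling, was instead raised in tag 3 too, at 268, 17.6, 96.4 and 18.6 CPM. Zbp1, a sensor of Z-form nucleic acid, stood at 215, 12.9, 61.1 and 7.70 CPM, and Samd9l, an antiviral factor, at 121, 15.2, 44.2 and 17.6 CPM. These last 3 genes are high in tag 1 and intermediate in tag 3.

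The 4 Ifit genes, whose products bind foreign RNA, lie side by side on chromosome 19 between 34550694 and 34650009. Ifit3 was at 484 CPM (475–493) in tag 1, 9.32 (6.96–12.2) in tag 2, 17.7 (15.7–20.0) in tag 3 and 11.1 (9.49–12.8) in tag 4. Its near-identical copy Ifit3b was at 116, 2.15, 4.22 and 3.48 CPM, so that the ratio of tag 1 over tag 3 was 27.3 (24.1–30.9) for Ifit3 and 27.4 (21.3–35.7) for Ifit3b; reads can be shared between these copies. Ifit1 was higher in tag 3, with 789, 17.0, 78.2 and 28.1 CPM and a ratio of 10.1 (9.51–10.7). Ifit2 was low and varied least, with 33.5, 12.9, 14.0 and 14.7 CPM. The neighbours therefore differed among themselves, and tag 3 stood clear of tags 2 and 4 in Ifit1, less so in Ifit3, and not in Ifit2.

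The ISG15 system attaches a ubiquitin-like protein to others. Isg15, the modifier itself (chromosome 4, 156199424 to 156200818), was at 890 CPM (878–902) in tag 1, 36.9 (32.1–42.3) in tag 2, 158 (152–165) in tag 3 and 31.8 (29.1–34.7) in tag 4. Usp18, which removes ISG15 and restrains the receptor, was at 157, 14.2, 43.6 and 13.5 CPM. Herc6, the ligase, was at 60.7, 4.48, 9.04 and 6.15 CPM. All 3 passed 2-fold over every other tag, where 2.46% of all genes did. Tag 3 was at least 2-fold above tags 2 and 4 for Isg15 and Usp18 but not for Herc6.

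The 3 cytosolic RNA sensors were all higher in tag 3 than in the old cells. Their ratios of tag 1 over tag 3 differed, from 1.77 in Ddx58 to 4.96 in Dhx58, which had only 4 UMIs in tag 2. Ifih1, which encodes MDA5, was at 88.0, 8.25, 29.9 and 8.88 CPM, and Dhx58, which encodes LGP2, at 19.3, 0.72, 3.88 and 1.80 CPM. These 2 passed 2-fold in tag 1 over each other tag, and Ddx58 did not. The oligoadenylate synthetase family, which includes the enzymes that activate RNase L, lies on chromosome 5. All 5 passed, against 2.46% of all genes, with ratios of tag 1 over tag 3 between 3.41 for Oas1a and 7.80 for Oasl1. Oasl2 was the most abundant at 130, 5.02, 27.2 and 8.88 CPM. All of these genes were at least 2-fold higher in tag 3 than in tags 2 and 4, as were 28 of the 51 genes and 3.51% of all genes. They are part of those 28, so this is not a separate result.

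The interferon-inducible GTPases disrupt the vacuoles of intracellular microbes. All 8 passed, against 2.46% of all genes, yet they ranged widely in tag 3. Iigp1 was at 313, 10.8, 21.2 and 24.1 CPM, with overlapping intervals in tags 3 and 4. Ifi47 was at 39.1, 2.69, 3.15 and 2.86 CPM, flat outside tag 1. Irgm1, by contrast, was at 96.5, 15.4, 38.4 and 14.8 CPM. The guanylate-binding proteins lay between, with Gbp2 at 144, 11.3, 19.2 and 13.9 CPM, and the Gbp genes are similar enough to share reads.

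The p200 genes encode sensors and regulators that bind DNA, and all 4 passed, against 2.46% of all genes. Ifi204 was at 231, 10.4, 46.1 and 11.8 CPM and Ifi203 at 133, 10.9, 21.7 and 17.6 CPM. Ifi206 was at 57.8 CPM in tag 1, 0 in tag 2, 1.34 in tag 3 and 1.06 in tag 4. Its 0 UMIs in tag 2 allow a level of up to 0.54 CPM when 3 counts are taken as the limit, and against that limit it was at least 107-fold higher in tag 1 than in tag 2; the exact interval of the ratio starts at 87.2. These paralogs lie in 1 cluster on chromosome 1 and may share reads.

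Among the transcription factors, Irf7, the amplifier of the interferon response, was at 265, 12.0, 36.6 and 9.13 CPM. Stat2 was at 86.0, 14.2, 28.9 and 15.1 CPM. Irf1, which responds strongly to interferon gamma, was the least abundant in tag 1 of the 4 at 16.5 CPM, with 4.30 (2.76–6.40), 5.02 (3.95–6.30) and 7.14 (5.89–8.57) CPM in tags 2 to 4. Outside tag 1 these intervals overlap between neighbouring tags, but 2 ratios of Irf1 have intervals that leave out 1. The ratio of tag 4 over tag 2 was 1.66 (1.06–2.69) and that of tag 3 over tag 4 was 0.70 (0.52–0.95). These too are between 1 culture each. Cxcl10, a chemokine that attracts T cells (chromosome 5, 92346638 to 92348889), was at 227 CPM (221–233), 4.30 (2.76–6.40), 4.49 (3.48–5.70) and 7.20 (5.95–8.64) CPM. It was the only 1 of the 51 genes whose level in tag 3 lay below that of tags 2 and 4 pooled by more than its interval, at a ratio of 0.69 (0.51–0.94).

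The remaining members all passed, against 2.46% of all genes. Parp9 and Dtx3l, which act in an ADP-ribosylation and ubiquitin complex, had ratios of tag 1 over tag 3 of 2.95 and 3.74. That of Parp14 was 5.14. The Schlafen genes Slfn5 and Slfn8 had ratios of 3.99 and 5.22. Ifi44 was at 312, 12.7, 55.9 and 13.0 CPM, Lgals3bp, a secreted glycoprotein, at 363, 40.0, 117 and 37.8 CPM, and Xaf1, a pro-apoptotic factor, at 219, 17.2, 57.1 and 17.7 CPM. Phf11d and its paralog Phf11b were at 245, 5.56, 18.3 and 8.94 CPM and at 56.8, 0.54, 1.07 and 0.56 CPM. Rtp4, Ifi35 and Ifi27l2a had ratios of tag 1 over tag 3 of 3.69, 2.74 and 3.06.

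The 51 genes therefore did not share 1 pattern in the AngII-treated cells. A count of genes at least 2-fold higher in tag 3 than in each of tags 2 and 4, added after the values were seen, gave 28 of 51, against 3.51% of all genes. With the filter on low values applied to tags 2, 3 and 4 alone, it gave 26 of 46, against 3.41% of all genes. To place each gene, its excess in tag 3 over the mean of tags 2 and 4 was divided by its excess in tag 1 over the same mean. This share had a median of 14.4% and ran from -6.46% in Irf1 to 39.7% in Ddx58. It was under 5% in 13 genes: Irf1, Cxcl10, Rsad2, Cmpk2, Phf11b, Ifit2, Ifi47, Ifit3b, Iigp1, Ifi206, Ifit3, Phf11d and Gm4951. It was 20% or more in 15 genes, among them Trim30a (31.3%), Irf9 (30.7%), Irgm1 (28.6%), Ifih1 (26.9%), Zbp1 (24.8%) and Usp18 (20.8%). Isg15 at 14.5% and Bst2 at 15.6% were near the median. A high level in tag 1 lowers this share, so a low share does not mean that tag 3 was not raised. In tag 3, Phf11d, with a share under 5%, was at 3.30 and 2.05 times tags 2 and 4 and is among the 28 genes. Irf9, with 30.7%, was at 1.57 times tags 2 and 4 pooled and is not.

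**Figure D2:**
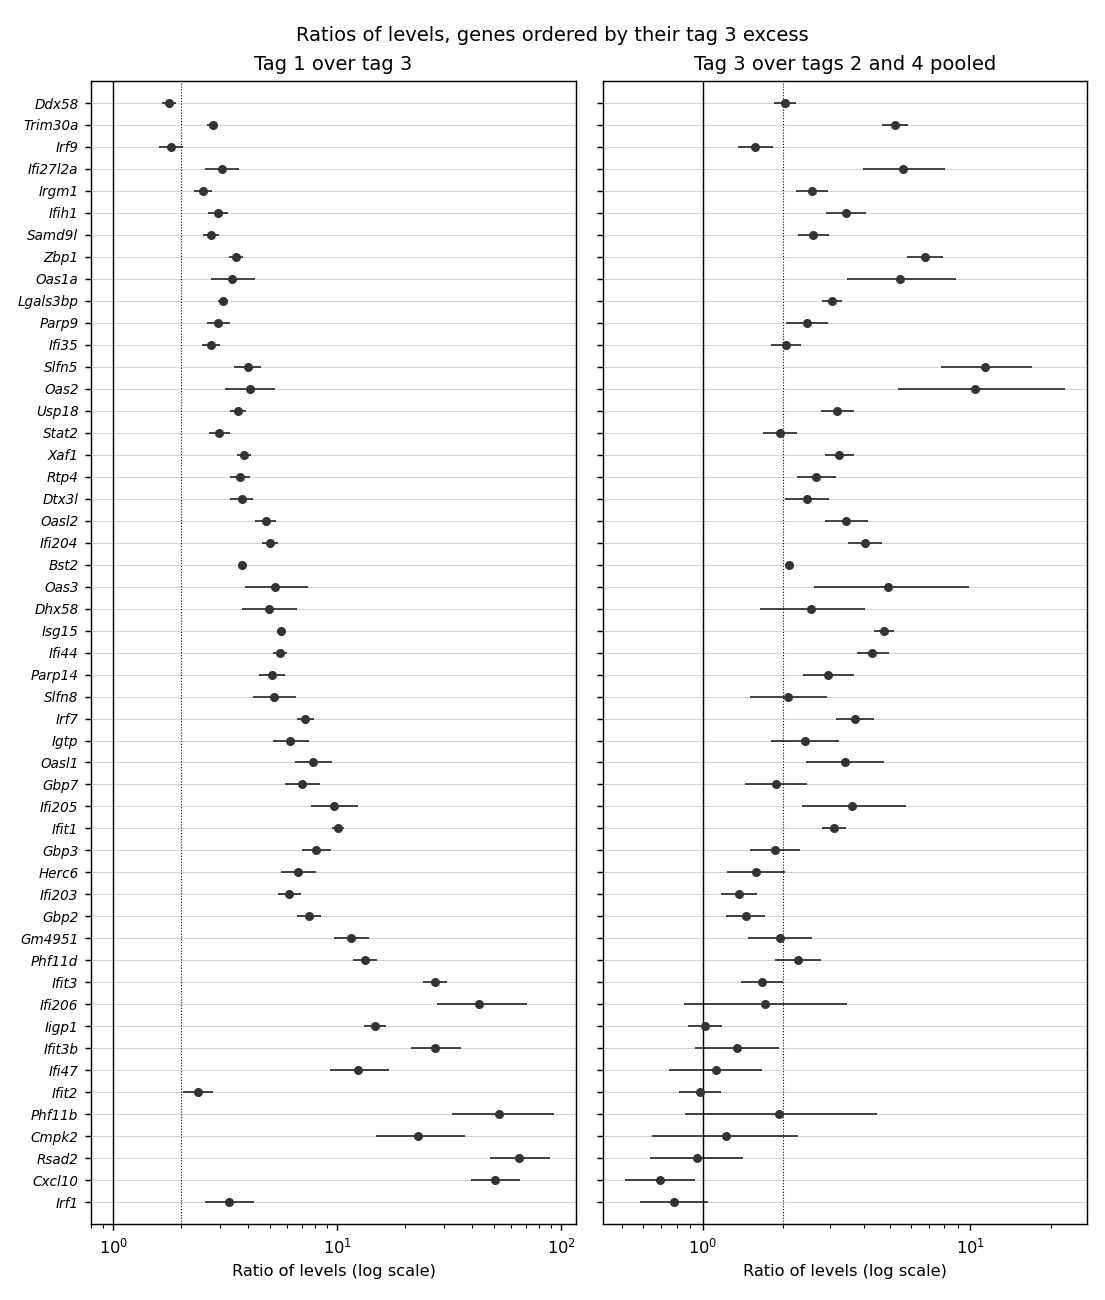
Ratio of the level in tag 1 over tag 3 (left) and in tag 3 over tags 2 and 4 pooled (right) for each of the 51 genes, on log axes with 95% counting intervals; the solid line is 1 and the dotted line 2. Genes are ordered by the share of the tag 1 excess that is found in tag 3, from Irf1 at the bottom to Ddx58 at the top. On the right, the 13 genes with a share under 5% run from 0.69 in Cxcl10 to 2.27 in Phf11d. Of the 51 genes, 41 have an interval above 1. The share of all genes with such an interval is not given here.

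The ISRE core did not sort the genes along this order. Among the 40 genes with a promoter window, it was found in 13 of the 20 with the lower share and in 11 of the 20 with the higher share. The GAS letters were found in 4 and 3. Cxcl10 and Rsad2 at one end and Trim30a, Irgm1 and Ddx58 at the other all hold an ISRE core in their windows, as the stretches printed above show for 4 of them.

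Free RNA was measured in 1299325 barcodes with 1 to 100 UMIs. There the 51 genes summed to 2807 CPM, above tags 2, 3 and 4 and below tag 1. The level in tag 1 was 3.48 times that in these near-empty barcodes at the median, from 1.46 in Ifit2 to 5.48 in Rsad2. In tag 2 and tag 4 the median gene stood at 19.5% and 22.2% of its near-empty level, and in tag 3 at 60%. For Ifit3, Cxcl10 and Rsad2, tag 2 was at 6.91%, 6.89% and 4.12% of the near-empty level. How much of such levels is free RNA was not tested, as above. Irf9 at 58.0%, Ifit2 at 56.4% and Ddx58 at 52.3% lay well above these shares in tag 2. In tag 3, 9 genes exceeded the near-empty level itself, Trim30a at 132% of it.

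Sums over a tag do not show how the RNA was spread over cells, so each cell was thinned to 5000 UMIs. This left out 747 shallower cells of tag 1, 21 of tag 2, 136 of tag 3 and 114 of tag 4. The median cell of tag 1 then held 48 UMIs of the 51 genes (5th to 95th percentile 11 to 88), that of tag 2 held 3 (0–10), that of tag 3 held 9 (2–20) and that of tag 4 held 3 (0–12). The median number of different genes detected was 21, 2, 6 and 2. At or above the 5th percentile of tag 1 were 2278 of 2397 tag 1 cells, 4.20% of tag 2, 35.5% of tag 3 and 6.50% of tag 4 cells. At or above the median of tag 1 were 1 cell of tag 2, 0 of 1364 cells of tag 3 and 2 of tag 4. The 25th percentile of tag 3, 6 UMIs, lay above the 75th of tag 2, 4 UMIs, and of tag 4, 5 UMIs, so the higher sum of tag 3 was a shift of most of its cells rather than a few cells at the level of tag 1.

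**Figure D3:**
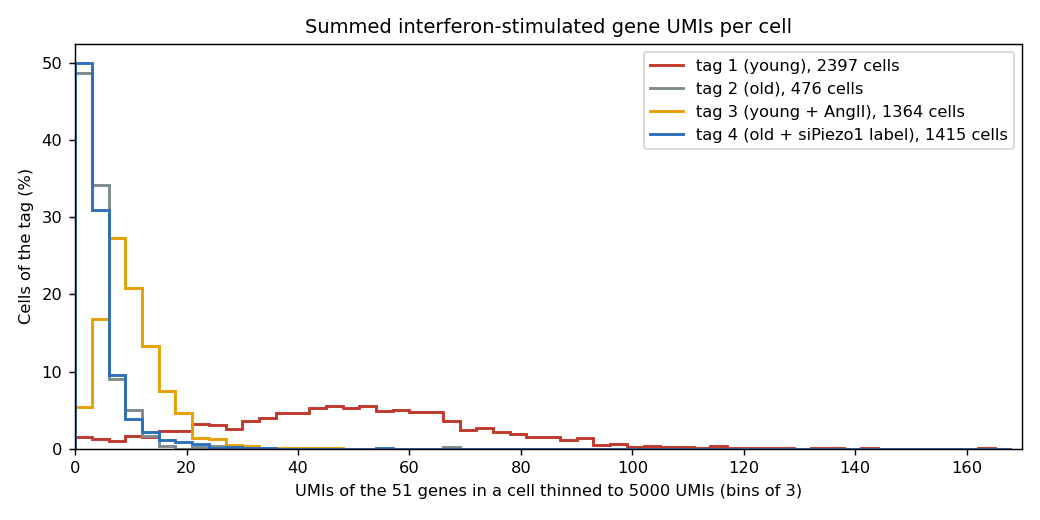
Distribution of the summed UMIs of the 51 genes per cell after thinning each cell to 5000 UMIs, as the percent of cells of each tag in bins of 3 UMIs. Tags 2 and 4 lie together near 3, tag 3 peaks around its median of 9, and tag 1 spreads broadly around 48 with a low shoulder.

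The low shoulder of tag 1 held 108 cells (4.51% of the thinned cells) at or below the median of tag 3. Of these, 45.4% had Xist and no Y-linked transcripts, against 4.11% of the other tag 1 cells. Their median count of hashtag 1 was 140.5 UMIs against 431. Conversely, 92 cells of tag 4 and 20 of tag 2 lay at or above the 5th percentile of tag 1. Their share with Xist and no Y-linked transcripts was 65.2% and 50%, against 68.0% and 63.2% in the other cells of those tags. Scrublet called 35.9% and 45% of them doublets, against 19.9% and 21.3% of the other cells, and the part of doublets was not tested. Within tag 1, the 51 genes summed to 10193 CPM in cells with Y-linked transcripts and no Xist and to 3749 CPM in cells with Xist and no Y-linked transcripts. Whether the latter are mislabelled cells was not tested. In the same order, the sums were 719 and 684 CPM in tag 2, 1975 and 1198 in tag 3 and 814 and 667 in tag 4. Among cells with Y-linked transcripts and no Xist, 1700 in tag 1 and 97 in tag 2, the summed ratio of tag 1 over tag 2 was 14.2. Over all cells of these tags it was 13.5.

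Within tag 1 the level also went with other properties of the cells. Cells with at least 3 UMIs of markers of division summed to 7506 CPM (7455–7558) and the others to 10979 CPM (10923–11036). The same order, dividing cells lower, held in the other tags, at 611 and 764 CPM in tag 2, 1696 and 2009 in tag 3 and 642 and 821 in tag 4. Cells that Scrublet called doublets summed to 5778 CPM in tag 1 and the others to 11121 CPM, and the called cells had a median of 10354.5 UMIs and the others one of 6274. In the other tags the called cells and the others summed to 833 and 652 CPM in tag 2, 1602 and 1955 in tag 3 and 989 and 653 in tag 4. Within tag 1, from the lowest to the highest range of hashtag 1 counts, the sum went from 8687 to 9851 CPM. Without the called doublets the summed ratio of tag 1 over tag 3 was 5.69, and 5.06 with them.

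Genes differed in how unevenly tag 1 cells carried them. The variance of the thinned counts over their mean would be near 1 for counting noise alone. It had a median of 1.31 over the 48 members with a mean of at least 0.1 UMI, against 1.08 over all 6240 such genes, and 9 of the 48 lay above the 95th percentile of all genes (1.83). Genes were not matched on their mean count, with which this ratio can rise. Cxcl10 had the highest ratio of the members, 7.07: 33.6% of tag 1 cells had a UMI, the top 5% of cells held 47.2% of its UMIs, and the highest cell had 45. Ifit1 followed with 4.27 and Rsad2 with 3.52, where 85.0% and 45.2% of cells had a UMI and the top 5% of cells held 19.9% and 36.0% of them. The share in the top 5% of cells gave another order. It was 77.3% for Ifi27l2a, whose ratio was 2.46 at a mean of only 0.16 UMI, against a mean of 4.16 UMIs for Ifit1. Bst2, by contrast, was found in 97.7% of tag 1 cells with a variance over mean of 2.81, and the top 5% of cells held 11.5% of its UMIs. Trim30a, at 1.35, was detected in 68.4% of tag 1 cells, 7.98% of tag 2, 36.1% of tag 3 and 7.70% of tag 4. Rsad2 was detected in 45.2%, 0.42%, 1.17% and 0.92%.

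**Figure D4:**
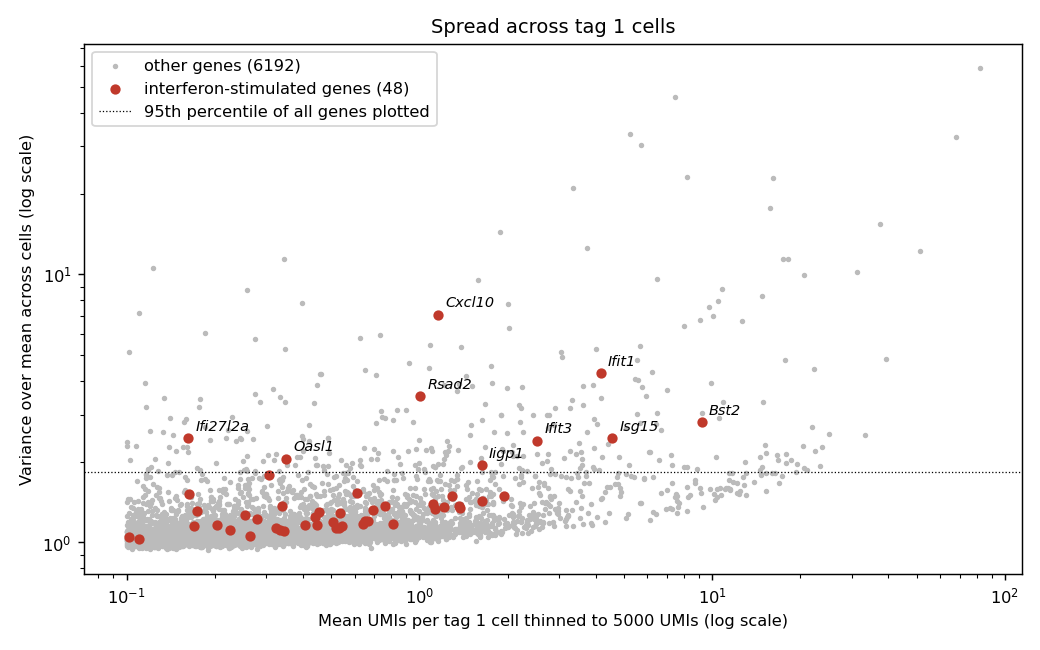
Variance over mean of the UMI counts across 2397 tag 1 cells thinned to 5000 UMIs, against the mean count, both on log axes, for 48 interferon-stimulated genes (red) and 6192 other genes (grey). The 9 named genes lie above the 95th percentile of all genes (dotted line at 1.83), with Cxcl10 farthest above at 7.07.

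Across the same 2397 cells, counts of the members went together weakly. Over 1128 pairs of 48 genes the median Pearson correlation was 0.094 and 1116 pairs were above 0. These points share 1 library and 1 depth, and the correlations of sparse counts are pulled towards 0. The same figures over pairs of all genes are not given here. The cells of the low shoulder and the called doublets were included, and their part in the correlations was not tested. The highest were Ifit1 with Ifit3 at 0.55, Isg15 with Bst2 at 0.50 and Ifit3 with Isg15 at 0.43. Rsad2 and Cxcl10 were at 0.35. Of genes that are no members, Ifitm3, a membrane protein that blocks virus entry, went most with the sum of the 51 (0.68 over log2 counts), followed by H2-K1 (0.52) and B2m (0.52), both parts of MHC class I, and Ly6a (0.51).

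The rest of the pathway was read from lists that were also chosen with earlier results known. The ligands were at or near 0: Ifnb1 at 0.12 CPM in tag 1 and 0 in tags 2 to 4, and the 11 interferon genes together at 0.54, 0, 0.27 and 0.31 CPM. Of the 5 receptor genes tested, 0 passed 2-fold in tag 1 over each other tag, with Ifnar1 at 26.7, 27.4, 25.2 and 35.6 CPM and Ifnar2 at 167, 119, 92.3 and 124 CPM. Of 12 further sensing genes, Tlr3 (30.4, 4.12, 9.84 and 5.40 CPM) and Samhd1 (97.4, 20.4, 40.2 and 22.8 CPM) passed. Of 8 genes tested from a list of feedback and other interferon-induced genes, Isg20 and Trim21 passed, and the feedback gene Socs1 did not, at 12.6, 9.68, 6.90 and 10.9 CPM. Of 18 targets of NF-kB, another inflammatory pathway, 0 passed over each other tag. Of these 18, 3 were at least 2-fold higher in tag 1 than in tag 2, 1 than in tag 3 and 4 than in tag 4. The genes behind these counts are not named here. As examples of the rest of the 18, Ccl2 was at 3614, 3564, 2679 and 3710 CPM and Il6 at 131, 102, 125 and 95.4 CPM. Over all genes tested, 2.46% passed over each other tag. At least 2-fold higher in tag 1 than in tags 2, 3 and 4 were 6.41%, 4.65% and 6.20% of all genes. In lists of 5 and 18 genes, a count of 0 passing cannot be told apart from a share that low. Of 68 other interferon-induced genes tested, 52 passed; that list shares genes with those above, Isg20 and Trim21 among them.

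Of genes outside the 51 with a mean of at least 10 CPM, Ccl5 had the highest ratio of tag 1 over the next tag. This chemokine for leukocytes was at 709 CPM in tag 1 and 12.9, 13.6 and 16.1 CPM in tags 2 to 4. Psmb8 and Psmb9, which encode subunits of the immunoproteasome, were at 227, 10.0, 21.7 and 11.4 CPM and at 36.4, 0.72, 2.41 and 2.05 CPM. The 10 such genes of highest ratio also held Ccn5, at 72.0, 1.61, 5.76 and 1.37 CPM, and Vegfd, at 248, 17.0, 29.6 and 24.0 CPM. Of the 8444 genes with a mean of at least 10 CPM, ranked by tag 1 over the next tag, the members made up 6 of the first 10, 26 of the first 50 and 38 of the first 100, as the choice of genes implies. Markers of leukocytes were low in every tag. Ptprc, the pan-leukocyte gene, was at 0.041 CPM in tag 1, 0 in tag 2, 0.13 in tag 3 and 0 in tag 4, the 8 macrophage markers summed to 19.8, 19.4, 16.2 and 26.0 CPM, and C1qa and 3 T cell markers were at 0 in every tag (3 counts would be 0.12 CPM in tag 1 and 0.54 in tag 2). Csf1r was the 1 macrophage marker that passed 2-fold in tag 1, at 8.62, 2.69, 3.68 and 2.05 CPM, and among endothelial markers Kdr did, at 5.39, 1.61, 2.08 and 1.18 CPM; the part of such cells in the levels of the 51 genes was not tested. The 2 markers of plasmacytoid dendritic cells summed to 0.37, 0.18, 0.20 and 0.62 CPM. The 7 endothelial markers summed to 9.04, 6.28, 4.49 and 5.15 CPM, with Cldn5 at 0 in every tag, and the 6 fibroblast markers to 607, 583, 770 and 789 CPM.

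Cells without a tag summed to 882 CPM of the 51 genes and 8.78% of them, after thinning, reached the 5th percentile of tag 1. Cells with more than 1 tag summed to 4414 CPM where tag 1 was among the tags and to 1148 CPM where it was not. The multi-tag cells thus lay between tag 1 and the others when tag 1 was in the mixture.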

How the data were processed

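One pooled single-cell library (gene expression and hashtag) was analysed. The deposited values are raw UMI counts that the authors made with Cell Ranger 4; Seurat is also named in the submitters' notes, while build and annotation were not given in the sources used here. In all, 2472397 barcodes carry 138733332 UMIs of genes and 12779836 of hashtags. Positions came from GENCODE vM21 (GRCm38), matched on the Ensembl identifier, which held 32158 of 32285 identifiers.

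Cells needed 2218 gene UMIs and 200 genes. A cell had tag 1, 2, 3 or 4 where only that hashtag exceeded 36, 52, 61 or 41 UMIs. CPM is a gene's summed UMIs per 1000000, with exact Poisson 95% intervals; ratios have exact binomial and shares Clopper-Pearson intervals, which cover counting error only. A gene was counted as at least 2-fold apart if its mean over the tags was at least 2 CPM; against 0 UMIs, 3 counts were used. With 1 culture per tag no test was run. Scrublet (scanpy 1.11.5) called 3057 of the cells (23.4%) doublets at an expected rate of 10%; they were kept. The calculation of the ratios was run on simulated Poisson counts. These lack the spread between cells and cultures, so the run checks the calculation only. Analysis used Python 3.11.15, numpy 2.4.6, scipy 1.17.1 and pandas 2.3.3.

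The members, gene lists and tests were chosen with earlier results of these data known. Any member could be named; those given with every tag were the 20 of highest mean CPM, the 5 with the largest and the 5 with the smallest ratio of tag 1 over the next tag, and those not passing 2-fold, while others were named with their group. Genes that are no members came from fixed lists, or were the 10 with the highest such ratio at a mean of at least 10 CPM. Others were the 10 that went most with the summed members across tag 1 cells. Paralogs may share reads. One item is not reported here. The alternatives were other cell filters, tag and doublet rules, thinning, equal weight per cell, subtraction of free RNA, cells with Y-linked transcripts only, cells that do not divide, other limits on level and fold, and, added after the data were seen, the filter on low values over the compared tags alone.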

Additional observations from a re-analysis of the deposited data

How the results depend on the processing

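The counts of genes at least 2-fold higher in tag 1 than in tags 2, 3, 4 or each of them stayed within 1.5 times under all 13 alternatives, between 40 and 51. Of the 3 genes counted for tag 4 over tag 2, Rsad2 and Dhx58 had 8 and 4 UMIs in tag 2 and Iigp1 had 60. The count changed with the setting. It was 8 where the own hashtag had to be 3 times the next, 6 without called doublets, 9 in cells with Y-linked transcripts but without Xist, 5 after thinning, 12 with 5% of UMIs subtracted as free RNA, 14 at 1.5-fold and 0 at 3-fold. The count for tag 4 below tag 2, 0 genes, was 3, 2, 2 and 2 under the first 4 of these settings, 1 with cells weighted equally, 3 with free RNA subtracted and 5 at 1.5-fold. The count for tag 3 over tags 2 and 4, 28 genes, was 16 at 3-fold and between 24 and 39 otherwise, 26 with the filter on low values over tags 2, 3 and 4 alone. That filter and the one over tags 2 and 4 alone, which gave 2 and 0 genes for tag 4 against tag 2, were chosen after seeing the data. Dhx58 in tag 4 over tag 2 turned to 0.50 in cells with Y-linked transcripts but without Xist. Of the other ratios of single genes, 107 moved outside their counting interval and 810 did not. The cause was not tested.

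No paired analysis was possible because each group is 1 culture. Depth limits tag 2 most, whose 497 cells held 5577355 UMIs, so that 1 UMI is worth 0.18 CPM.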
